A study of Mus musculus with 9 samples.

Results

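T-box transcription factors bind DNA through a shared domain, the T-box, and set the identity of mesodermal tissues such as heart, limb and connective tissue. The genes described here are 8 of the 17 annotated mouse T-box genes, Tbx1, Tbx2, Tbx3, Tbx4, Tbx5, Tbx15, Tbx18 and Tbx20, found by Ensembl identifier among the 47937 genes of the count table. Tbx2 and Tbx3 are known mainly as repressors, and Tbx4 and Tbx5 as activators of limb bud outgrowth. Tbx1 acts in the pharyngeal mesoderm, Tbx15 and Tbx18 in limb, dermal and skeletal mesenchyme, and Tbx20 in the developing heart. Embryonic fibroblasts are mesenchymal cells and keep the expression of many such positional regulators in culture. All 8 genes are annotated as protein-coding. Of them, 7 had enough counts to enter the test of 15540 genes, and Tbx4 did not.

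RNA sequencing was performed on mouse embryonic fibroblasts (MEFs) of 3 genotypes, with 3 libraries each. WT cells are an Eset1-conditional line, E1c, in which a tamoxifen-inducible Cre can delete the histone H3 lysine 9 (H3K9) methyltransferase Eset1. S1S2 cells carry CRISPR/Cas9 frameshift mutations in Suv39h1 and Suv39h2, and G9Gl cells carry them in G9a (Ehmt2) and Glp (Ehmt1), both in the E1c background. Each mutant is a single clone chosen for loss of the target proteins, so genotype and clone cannot be told apart. After gene disruption an inducible Cre construct with puromycin resistance was put back, and the lines were grown in puromycin. Whether WT cells were treated alike is not stated, so any such difference cannot be told apart from genotype either. Whether 4-hydroxytamoxifen was given to these cultures is not stated in the sources used here. The ages and sexes of the source embryos are not given there either. Libraries held between 21319778 and 32157623 counts, and the S1S2 libraries were the smallest. Suv39h1 had 815 to 1214 counts in the S1S2 libraries against 3206 to 3657 in WT, Ehmt1 had 1401 to 1488 in G9Gl against 3186 to 3325, and Ehmt2 had 1489 to 1635 against 3535 to 4201. Suv39h2 had 1121 to 1523 counts in S1S2 and 1036 to 1078 in WT. These counts are not corrected for library size. As CPM, the scaled measure described below, mean Suv39h1 was 41.9 in S1S2 and 108 in WT. Mean Ehmt1 was 50.2 CPM in G9Gl and 104 in WT, and mean Ehmt2 was 54.3 and 125. Mean Suv39h2 was 55.2 CPM in S1S2 and 33.9 in WT, without overlap (log2 fold change 0.70). Its transcript was thus higher, not lower, in the libraries labelled S1S2. All 8 fibroblast markers examined were detected in every genotype.

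The genes were chosen by family name with their counts and fold changes between these genotypes already known, so their values are a description and carry no p-values. Expression is given as CPM, counts scaled to a common library size with TMM factors for library composition. A gene was called where the adjusted p over all 15540 genes was at most 0.01 and the fold change at least 2 in the quasi-likelihood test of edgeR. Where a group had at most 3 counts in every library, its level was set to a floor of 3 counts per library and the fold is written as "at least". In bulk RNA, fewer cells expressing a gene and less RNA per cell cannot be told apart.

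The genes lie on 5 chromosomes of GRCm38. Tbx1 (ENSMUSG00000009097.9) spans chr16:18580979-18590671 on the minus strand. Tbx15 (ENSMUSG00000027868.11) spans chr3:99240381-99354259 on the plus strand. Tbx18 (ENSMUSG00000032419.8) at chr9:87702800-87731260 and Tbx20 (ENSMUSG00000031965.14) at chr9:24718138-24774303 both lie on the minus strand of chromosome 9. The remaining genes form linked pairs on the plus strand. Tbx2 (ENSMUSG00000000093.6, chr11:85832551-85841948) and Tbx4 (ENSMUSG00000000094.12, chr11:85886422-85916097) are separated by 44.5 kb. Tbx3 (ENSMUSG00000018604.18, chr5:119670669-119684724) and Tbx5 (ENSMUSG00000018263.11, chr5:119832668-119885219) are separated by 148 kb with no protein-coding gene between them. Each linked pair holds a repressor of the Tbx2/Tbx3 type and an activator of the Tbx4/Tbx5 type.

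Promoter sequence from RefSeq (GRCm38.p6) was matched for 4 of the 8 genes, Tbx1, Tbx4, Tbx18 and Tbx20. The 250 bases before the start are shown for Tbx1, which differed most between genotypes, and for Tbx18 and Tbx20, which are both abundant and stood on opposite sides of WT in the mutants. The windows are chr16:18590672-18590921 for Tbx1, chr9:87731261-87731510 for Tbx18 and chr9:24774304-24774553 for Tbx20, all read 5′ to 3′ on the minus strand. Capitals mark CpG dinucleotides, the sites of DNA methylation.
Tbx1: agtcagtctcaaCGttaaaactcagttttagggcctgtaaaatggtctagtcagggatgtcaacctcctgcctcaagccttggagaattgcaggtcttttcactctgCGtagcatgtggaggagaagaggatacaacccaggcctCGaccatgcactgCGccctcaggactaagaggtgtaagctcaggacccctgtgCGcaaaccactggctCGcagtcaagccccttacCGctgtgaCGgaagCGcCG
Tbx18: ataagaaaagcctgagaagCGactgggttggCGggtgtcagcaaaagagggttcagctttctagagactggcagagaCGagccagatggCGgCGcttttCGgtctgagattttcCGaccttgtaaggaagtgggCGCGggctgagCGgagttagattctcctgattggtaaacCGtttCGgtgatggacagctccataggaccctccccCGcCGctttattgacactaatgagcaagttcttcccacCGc
Tbx20: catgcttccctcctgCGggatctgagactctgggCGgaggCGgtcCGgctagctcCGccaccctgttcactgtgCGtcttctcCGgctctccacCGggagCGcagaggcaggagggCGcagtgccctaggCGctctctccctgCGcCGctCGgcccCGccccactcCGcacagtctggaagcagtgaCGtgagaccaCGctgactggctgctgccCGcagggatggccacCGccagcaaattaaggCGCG
These windows held 10 CpG in Tbx1, 15 in Tbx18 and 22 in Tbx20, and the Tbx4 window held 6. The median over 32851 mouse promoters of the same length was 6. A further annotated Tbx1 promoter, chr16:18588900-18589149, held 17. The T-box core GGTGTGA was not found on either strand of any of these windows, and 3.33% of all promoters hold it. The GC box core GGGCGG occurred at 2 positions in the Tbx20 window and at none in the Tbx18 and Tbx1 windows shown, and 32.7% of all promoters hold it. These matches describe the letters of each window.

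In WT cells the T-box genes spanned a wide range of levels. Levels between genes were compared as CPM per kilobase of merged exons. Tbx15 stood highest of the 8 at 7.26 ± 0.223 (SD, n = 3), followed by Tbx18 at 5.97 ± 0.353. Tbx3 at 3.78 ± 0.267 and Tbx5 at 3.77 ± 0.170 came next, and their libraries overlapped. Tbx20 at 3.26 ± 0.249 lay below them without overlap by this length. Tbx1 reached 0.726 ± 0.0675, Tbx2 0.115 ± 0.0112 and Tbx4 0.0841 ± 0.0504, and the last pair overlapped. Thus 5 genes, Tbx15, Tbx18, Tbx3, Tbx5 and Tbx20, made up most of the summed level of the 8, all of them known from limb, dermal or heart mesenchyme.

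The order of levels differed between genotypes. In S1S2 cells the per-kilobase order was Tbx15 (8.02), Tbx18 (4.81), Tbx20 (4.57), Tbx3 (2.72), Tbx5 (1.01), Tbx2 (0.448) and Tbx1 (0.343), with Tbx2 and Tbx1 overlapping. In G9Gl cells it was Tbx15 (8.80), Tbx18 (5.29), Tbx20 (4.67), Tbx3 (3.07), Tbx5 (2.87), Tbx2 (0.152), Tbx4 (0.0268) and Tbx1 (0.00309). There Tbx3 overlapped Tbx5, and Tbx4 overlapped Tbx1. By merged exons Tbx20 therefore stood below Tbx3 and Tbx5 in WT cells and above both in each mutant. With the longest transcript as the length, Tbx20 in WT was at 4.30 and Tbx5 at 4.47, and their libraries overlapped. By that length Tbx20 also stood above Tbx18 in S1S2 (6.03 against 4.85) and in G9Gl cells (6.16 against 5.34). The order of Tbx20 and Tbx18, and the gap between Tbx20 and Tbx5 in WT, thus depend on the length used.

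**Figure D1:**
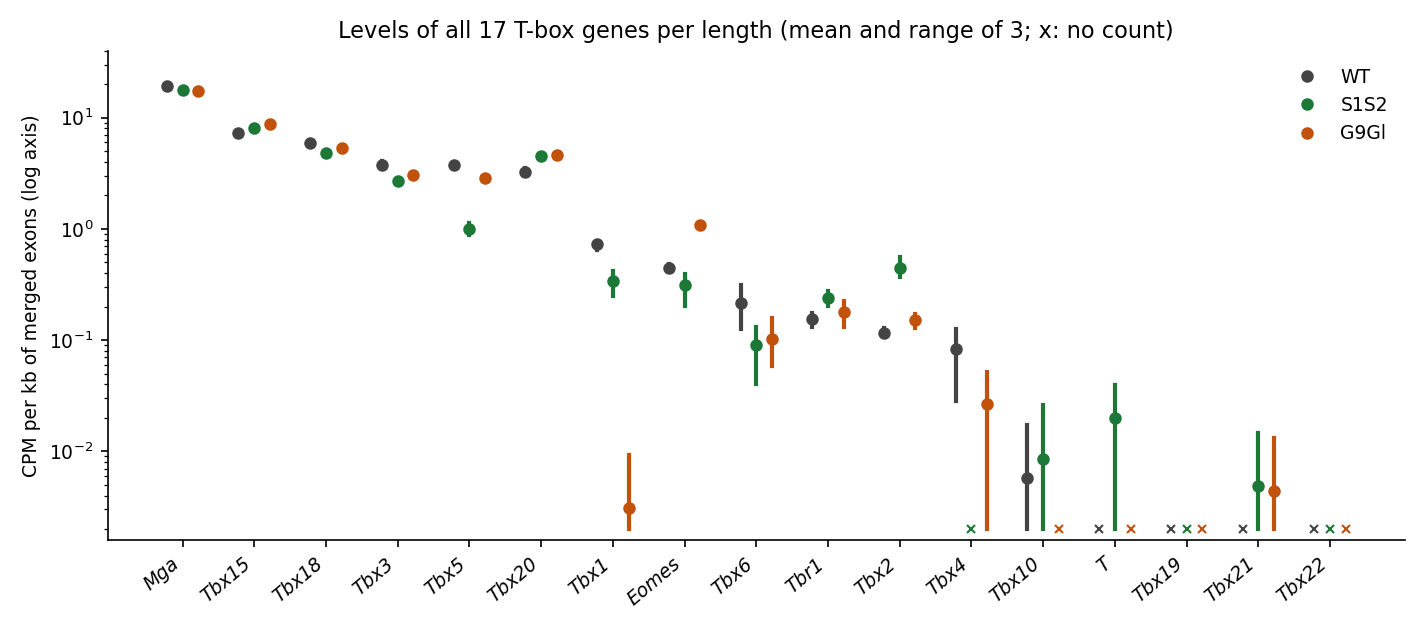
Levels of the 17 mouse T-box genes as CPM per kilobase of merged exons on a log axis, with points for the mean and lines for the range of 3 libraries per genotype. Lines that reach the lower edge include libraries with no count, and crosses mark genes with no count in a genotype. Tbx15 was the highest of the 8 genes described in all 3 genotypes, and Tbx1 lies near the lower edge in G9Gl.

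Of the 9 other T-box genes, only Mga, Eomes and Tbr1 passed the filter on low counts. Mga, a Max partner with a T-box, was the most abundant T-box gene at 19.2 CPM per kilobase in WT. Eomes, a regulator of mesendoderm and lymphocytes, had 1.86 ± 0.145 CPM in WT, 1.30 ± 0.417 in S1S2 and 4.49 ± 0.166 in G9Gl. It rose in G9Gl against WT (log2 fold change 1.26, SE 0.0685, edgeR adjusted p = 1.19e-05) and was not called in S1S2 (-0.55, adjusted p = 0.0474). Tbr1, Tbx6, T (brachyury), Tbx10 and Tbx21 had at most 38 counts in every library, and Tbx19 and Tbx22 had none.

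Tbx1 showed the largest difference of the 8 genes. It had 88, 69 and 83 counts in WT, 28, 24 and 31 in S1S2, and 0, 0 and 1 in G9Gl. These correspond to 2.71, 2.28 and 2.67 CPM in WT and 1.29, 0.875 and 1.46 CPM in S1S2. Every S1S2 library lay below every WT library, and the G9Gl libraries lay at or below the floor. Tbx1 was at least 24.6-fold lower in G9Gl than in WT and at least 11.6-fold lower than in S1S2. In S1S2 the log2 fold change against WT was -1.10 (SE 0.222). That call rested on S1S2 replicate 2, since without it the log2 fold change was -0.90, short of the fold change cutoff.

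Tbx5, the forelimb and heart regulator, was low in S1S2 cells. It measured 18.5, 17.0 and 17.4 CPM in the WT libraries, 4.09, 4.70 and 5.31 in S1S2, and 13.8, 13.4 and 13.0 in G9Gl. The 3 groups did not overlap, and the S1S2 libraries were far below both others. The log2 fold change was -1.91 (SE 0.114) in S1S2 and -0.39 (SE 0.045) in G9Gl against WT, and 1.51 (SE 0.110) in G9Gl against S1S2. Tbx5 was called in the S1S2 comparison and between the mutants, but not in G9Gl against WT.

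Its linked partner Tbx3, a repressor of cell cycle inhibitors, measured 23.3, 26.9 and 24.9 CPM in WT, 18.6, 16.6 and 18.7 in S1S2, and 19.0, 21.4 and 20.5 in G9Gl. Both mutants lay below WT without overlap. The log2 fold changes against WT were -0.48 (SE 0.081) in S1S2 and -0.30 (SE 0.078) in G9Gl, within the fold change cutoff. The 2 genes of this pair thus had unlike values in S1S2 cells.

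Tbx2, a repressor related to Tbx3, was the single gene of the 8 called higher in S1S2 against WT. It had 13, 14 and 12 counts in WT, 44, 37 and 32 in S1S2, and 16, 13 and 19 in G9Gl. In CPM these were 0.400, 0.463 and 0.387, then 2.02, 1.35 and 1.50, then 0.562, 0.467 and 0.620. The S1S2 libraries stood above all others. The log2 fold change was 1.94 (SE 0.181) in S1S2 and 0.40 (SE 0.126) in G9Gl against WT, and -1.54 (SE 0.198) in G9Gl against S1S2. Per kilobase, Tbx2 at 0.448 was still below Tbx3 at 2.72 in S1S2 cells.

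Tbx4, the hindlimb counterpart of Tbx5, was near the limit of detection. It had 14, 10 and 3 counts in WT, none in the 3 S1S2 libraries, and 5, 0 and 3 in G9Gl. By the WT mean against the floor it was at least 2.21-fold lower in S1S2 than in WT, while G9Gl overlapped both. WT replicate 3, with 3 counts, was itself at the floor. Tbx4 did not pass the filter on low counts and has no test among the 15540 genes. At this depth the means of the linked genes Tbx2 and Tbx4 stood on opposite sides of WT in S1S2 cells.

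Tbx20, a cardiac T-box gene, was the highest of the 8 in CPM. It measured 42.2, 38.7 and 36.3 CPM in WT, 55.3, 54.7 and 54.5 in S1S2, and 55.2, 56.8 and 55.9 in G9Gl. Both mutants lay above WT, and they overlapped each other. The log2 fold change against WT was 0.49 (SE 0.064) in S1S2 and 0.52 (SE 0.064) in G9Gl, and the mutants differed by 0.03 (SE 0.013).

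Tbx15, known from dermal and limb mesenchyme, measured 27.0, 28.1 and 26.5 CPM in WT, 30.7, 30.1 and 29.3 in S1S2, and 34.9, 30.9 and 33.2 in G9Gl. The log2 fold changes were 0.14 (SE 0.032) and 0.28 (SE 0.057). The groups did not overlap, but these differences were among the smallest of the 8 genes.

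Tbx18, known from epicardium and from limb and vertebral mesenchyme, measured 28.2, 26.5 and 29.8 CPM in WT, 22.7, 22.2 and 23.3 in S1S2, and 24.9, 26.1 and 23.9 in G9Gl. The log2 fold changes were -0.31 (SE 0.053) and -0.17 (SE 0.062), and both mutants lay below WT. An annotated gene on the opposite strand, D030062O11Rik, overlaps the Tbx18 start, and 16.9% of the Tbx18 75-mers also occur in it. The libraries were made with a stranded kit, but the strand setting of the counting is not stated, and without it reads of the 2 genes cannot be fully told apart. D030062O11Rik had 1.16 ± 0.0772 CPM in WT and was not called in either mutant. For Tbx3 this share was 0.628%, and for the other 6 genes it was 0%.

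**Figure D2:**
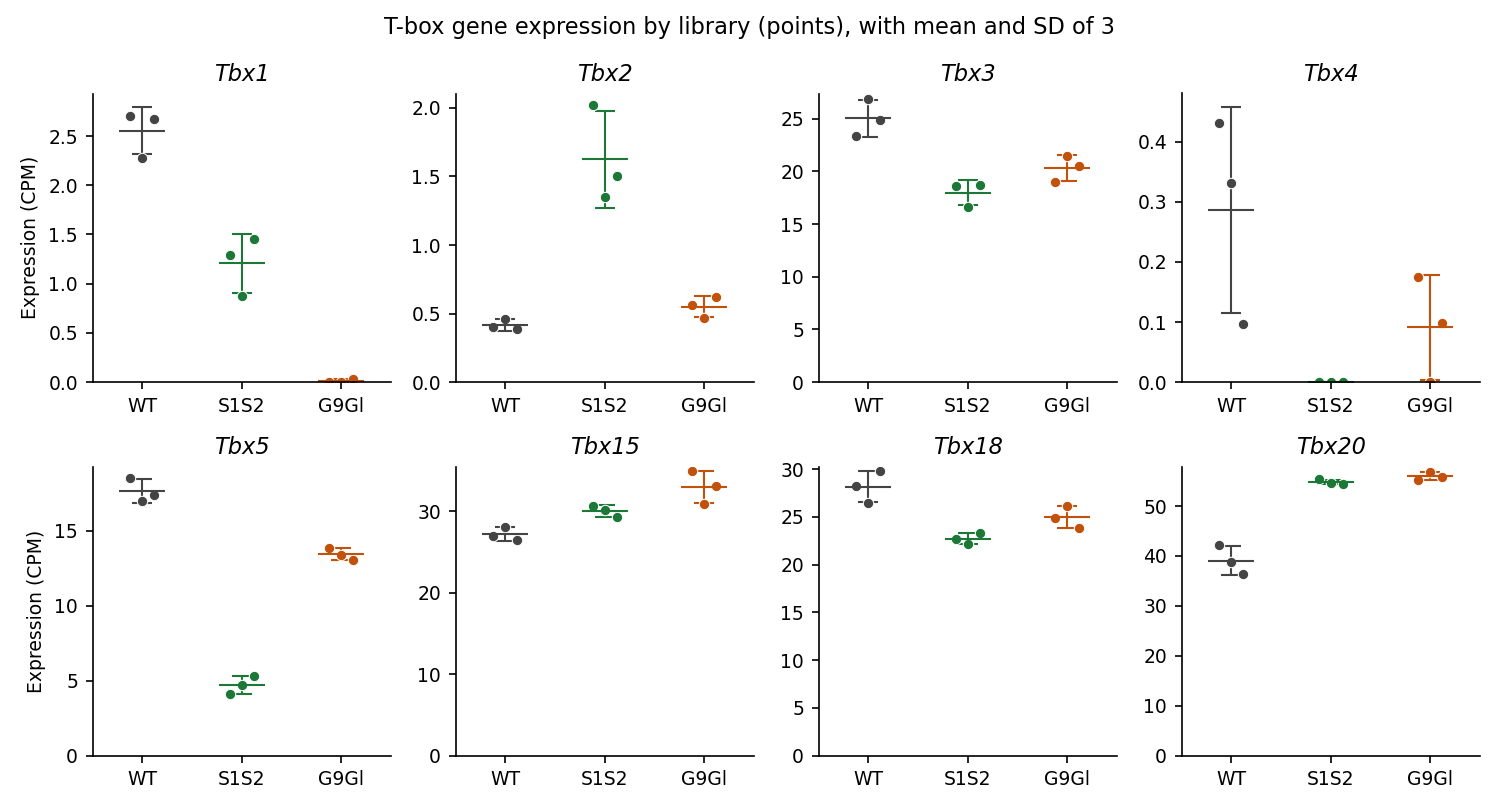
Expression in CPM of the 8 T-box genes in each library, with a separate linear axis from 0 in each panel, points for libraries, and bars for the mean and SD of 3. Tbx1 in G9Gl lies at the bottom of its panel with 0, 0 and 1 counts, Tbx5 is lowest in S1S2, and Tbx2 is highest in S1S2.

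Counted over the 7 tested genes, 3 were called in S1S2 against WT, Tbx2 higher and Tbx1 and Tbx5 lower, where the share over all tested genes was 9.0%, 4.66% being higher and 4.34% lower than WT. In G9Gl against WT 1 was called, Tbx1 lower, where the share over all genes was 10.2%, with 6.77% higher and 3.40% lower. In G9Gl against S1S2 3 were called, Tbx5 higher and Tbx1 and Tbx2 lower, against 13.1% of all genes, 7.97% higher and 5.08% lower. Libraries did not overlap for 7, 7 and 6 of the 7 genes, where the shares over all genes were 56.0%, 52.8% and 60.8%. Nothing is read from these counts, since the genes were chosen with the contrasts known. The comparisons with WT share the WT libraries. The median log2 fold change of the 7 genes was -0.31 in S1S2 and -0.17 in G9Gl, and over all genes tested it was -0.0032 and -0.0067.

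**Figure D3:**
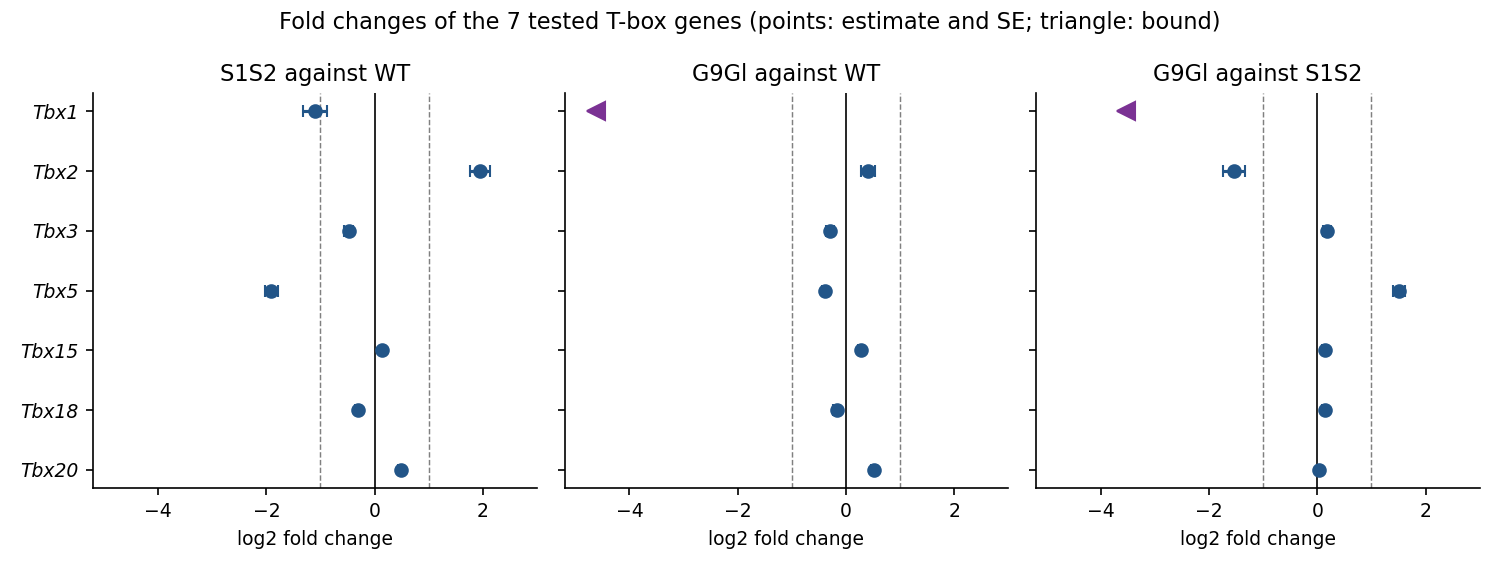
Log2 fold changes of the 7 tested T-box genes in the 3 comparisons, with points for the estimate and bars for the SE. Dashed lines mark the 2-fold cutoff, and triangles mark the lower bound for Tbx1 against a group at the floor. Tbx2 and Tbx5 lie beyond the cutoff on opposite sides in S1S2 against WT, and Tbx3, Tbx15, Tbx18 and Tbx20 lie within it in every comparison.

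The summed expression of the 8 genes was lower in S1S2 than in WT without overlap, and its make-up also shifted. The sum was 140 ± 2.45 CPM in WT, 133 ± 2.23 in S1S2 and 148 ± 0.995 in G9Gl (SD, n = 3). Per kilobase it was 25.0 ± 0.220, 21.9 ± 0.416 and 24.9 ± 0.310. Shares in S1S2 are parts of this smaller sum, and the level of Tbx15 itself was 7.26 per kilobase in WT and 8.02 in S1S2. Tbx5 made up 15.1% ± 0.569 of the per-kilobase sum in WT, 4.59% ± 0.610 in S1S2 and 11.5% ± 0.216 in G9Gl. Tbx20 made up 13.0% ± 0.883, 20.9% ± 0.360 and 18.8% ± 0.455, and Tbx15 made up 29.1% ± 0.901, 36.6% ± 1.08 and 35.4% ± 1.87. The share of Tbx2 was 0.460% ± 0.0454 in WT and 2.04% ± 0.413 in S1S2.

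**Figure D4:**
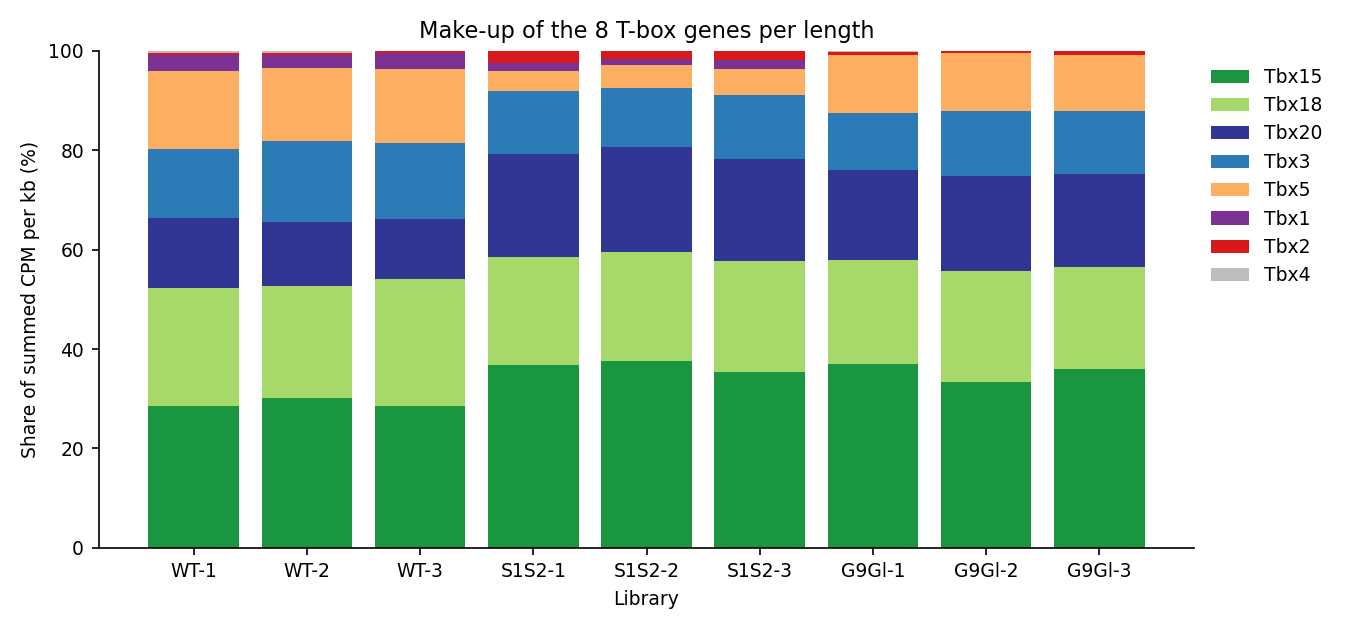
Share of each of the 8 T-box genes in their summed CPM per kilobase, in percent, for each of the 9 libraries. The band of Tbx5 is narrowest in the 3 S1S2 libraries, at 4.59% on average, and the bands of Tbx15 and Tbx20 are wider in both mutants than in WT.

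Genes flanking the T-box genes were examined next. Gm43050, a long noncoding RNA gene that starts 0.748 kb upstream of Tbx5 and is read in the opposite direction (chr5:119828448-119831920), had 2.56 ± 0.156 CPM in WT, 0.823 ± 0.156 in S1S2 and 1.80 ± 0.0569 in G9Gl. It fell in S1S2 (log2 fold change -1.65, SE 0.158, edgeR adjusted p = 4.12e-06) and was not called in G9Gl (-0.51, adjusted p = 0.0233). Between the mutants it was higher in G9Gl (1.14, adjusted p = 0.000274), a call lost at 0.99 without S1S2 replicate 2. Its values thus ran in the same order over the genotypes as those of Tbx5, an order that Tbx3 and Tbx18 also had. The protein-coding genes beyond Tbx3 and Tbx5, Med13l and Rbm19, were not called in either mutant. Their S1S2 log2 fold changes were -0.25 and 0.28.

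Near the other T-box genes, most neighbours were not called against WT. These were Gnb1l beside Tbx1, Bcas3 and Brip1 beside Tbx2 and Tbx4, Wars2 and Wdr3 beside Tbx15, Cep162 beside Tbx18, and Dpy19l1 and Herpud2 beside Tbx20. Wars2, which ends 1.20 kb from the Tbx15 start, had log2 fold changes of 0.41 (adjusted p = 0.000549) and 0.35 (adjusted p = 0.0017), both below the fold change cutoff. Nt5e, the CD73 ectonucleotidase 596 kb from Tbx18, fell in S1S2 (-1.81, adjusted p = 9.11e-07) and was not called in G9Gl (0.29, adjusted p = 0.126). Gp1bb, a platelet glycoprotein gene 29.6 kb from Tbx1, was called lower in G9Gl (-2.30). It had few counts, 8 to 23 in WT, 12 to 21 in S1S2 and 0 to 5 in G9Gl. It entered this comparison through the S1S2 libraries, as it did not pass the filter on low counts without them, so no p-value is given. The call was lost without WT replicate 2, WT replicate 3, G9Gl replicate 2 or G9Gl replicate 3. The median log2 fold change of chromosome 16, which holds Tbx1, was -0.20 in G9Gl and -0.086 in S1S2 over 451 genes. The medians of the other 4 chromosomes lay between -0.024 and 0.041 in G9Gl. In S1S2 they were 0.10 for chromosome 3, which holds Tbx15 (0.14), 0.040 for chromosome 5, -0.073 for chromosome 9 and 0.0084 for chromosome 11.

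**Figure D5:**
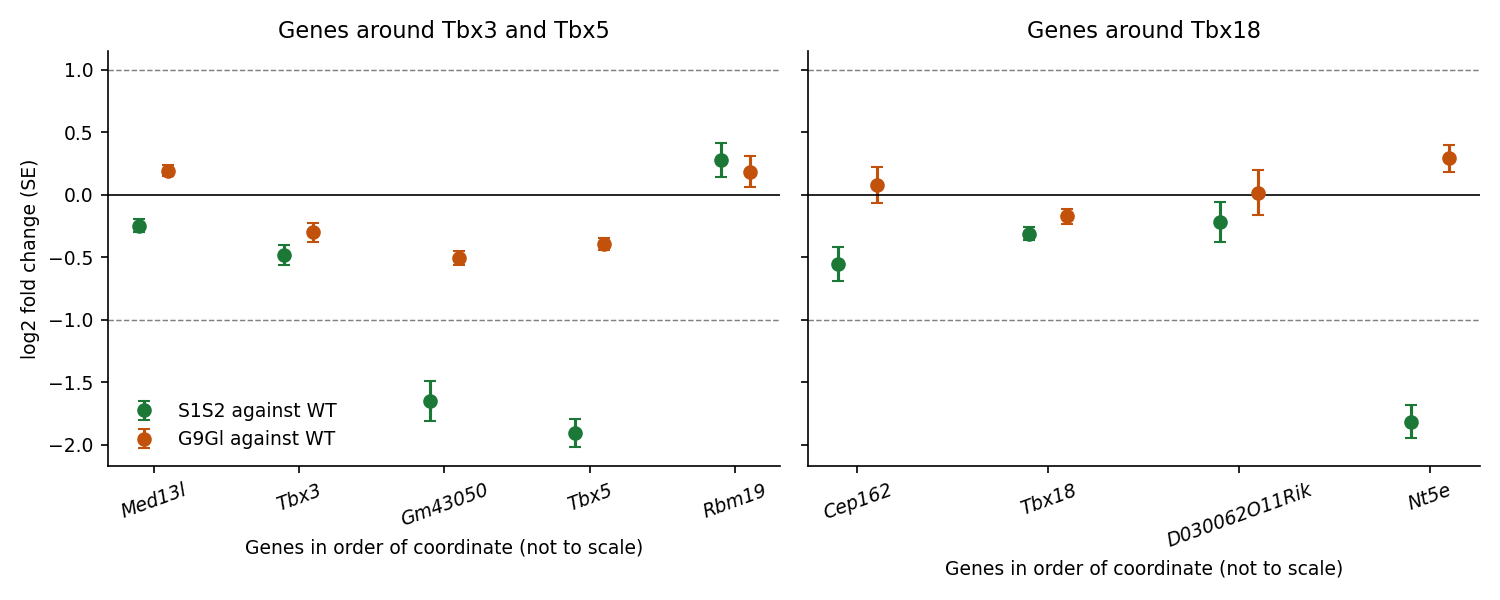
Log2 fold changes against WT, with SE, for the tested genes around Tbx3 and Tbx5 and around Tbx18, in order of coordinate and not to scale. Gm43050 and Tbx5 are both below -1 in S1S2, at -1.65 and -1.91, while Tbx3 and Rbm19 on either side are within the dashed 2-fold lines.

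Genes of the wider T-box network were taken from 4 lists of 70 genes, namely the 9 other T-box genes, 22 partners, 23 targets and 16 upstream signalling genes, of which 47 were tested. In S1S2 cells 9 of the 47 were called (19.1%, against 9.0% of all genes), 2 higher and 7 lower. In G9Gl cells 6 were called (12.8%, against 10.2%), 3 higher, of which Eomes was one, and 3 lower. Between the mutants 6 were called (12.8%, against 13.1%), 5 higher and 1 lower in G9Gl. With only the WT and G9Gl libraries fitted, 4 were called in G9Gl, since Mef2c and Cyp26a1 then did not pass the filter. Nothing is read from these shares, since the lists were chosen with earlier results of these data known. The median log2 fold change of the 47 genes was -0.12 in S1S2 and 0.092 in G9Gl.

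Among 22 cofactors and partners, 18 were tested, and 3 were called in S1S2 and 2 in G9Gl. Isl1, a LIM homeodomain regulator of heart and hindlimb progenitors, had 15, 13 and 17 counts in WT, none in S1S2, and 202, 210 and 210 in G9Gl. It was at least 3.71-fold lower in S1S2 than in WT and rose in G9Gl (log2 fold change 3.89, adjusted p = 9.58e-11). The corepressor Tle4 fell in S1S2 (-1.38, SE 0.097, adjusted p = 5.59e-07) and had a log2 fold change of 0.86 in G9Gl. Mef2c, a listed muscle transcription factor below 1 CPM in every genotype and named after its values were seen, had 2, 1 and 3 counts in WT, 13, 23 and 20 in S1S2, and 16, 7 and 13 in G9Gl. S1S2 exceeded WT at least 8.25-fold, and G9Gl exceeded it at least 4.29-fold. It entered the G9Gl comparison through the S1S2 libraries, as it did not pass the filter without them.

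Among 23 known target genes, 16 were tested, and 4 were called in S1S2 and 2 in G9Gl. Has2, a hyaluronan synthase, fell in S1S2 from 14.3 ± 0.357 to 5.87 ± 1.01 CPM (log2 fold change -1.28, adjusted p = 2.28e-08) and stood at 17.3 ± 0.896 CPM in G9Gl. Col1a2, a collagen chain that is also on the fibroblast marker list, fell in S1S2 (-2.60, SE 0.040, adjusted p = 7.51e-17) and had a log2 fold change of -0.24 in G9Gl. Flt4, the VEGFR3 receptor, rose in S1S2 (1.53, adjusted p = 0.000839).

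Fgf10 and Cyp26a1, both below 1 CPM in every genotype and named after their values were seen, were the other called targets. Fgf10, the limb bud growth factor downstream of Tbx4 and Tbx5, had 33, 20 and 16 counts in WT, 1, 3 and 2 in S1S2, and none in G9Gl. It was at least 5.64-fold lower in S1S2 and at least 7.05-fold lower in G9Gl. Tbx5 was at 13.4 ± 0.402 CPM in G9Gl. Cyp26a1, a retinoic acid hydroxylase, had 19, 12 and 8 counts in WT, 11, 18 and 13 in S1S2, and 1, 2 and 5 in G9Gl. Its log2 fold change in G9Gl was -2.12. That call was lost without WT replicate 1 (adjusted p = 0.0268), without G9Gl replicate 1 (0.0203) or without G9Gl replicate 2 (0.0165), and without the S1S2 libraries the gene did not pass the filter.

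Among 16 upstream signalling genes, 10 were tested, and 2 were called in S1S2 and 1 in G9Gl. Gli1, a transcriptional readout of Hedgehog signalling, had 5.27 ± 0.612 CPM in WT, 1.36 ± 0.341 in S1S2 and 2.27 ± 0.106 in G9Gl. It fell in both mutants, by log2 fold changes of -1.93 (SE 0.213, adjusted p = 1.08e-07) and -1.22 (SE 0.105, adjusted p = 5.86e-06). Bmp4, a ligand that acts upstream of Tbx2 and Tbx3, fell in S1S2 from 72.5 ± 9.21 to 28.6 ± 0.931 CPM (-1.34, adjusted p = 1.68e-10). In G9Gl it had 45.0 ± 0.976 CPM, a log2 fold change of -0.69 that was below the cutoff.

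The genes whose pattern over the 9 libraries was most like each T-box gene were found by Pearson correlation of log2 CPM. The libraries fall into 3 genotype clusters, so r mostly reflects the genotype means and is a description. For Tbx1 these were Sulf2 (0.997), Msmo1 (0.996) and Mgp (0.996), and for Tbx5 Mex3a (0.999), Dna2 (0.997) and Dchs1 (0.995). For Tbx2 they were Plp2 (0.988), Baiap2 (0.986) and Daglb (0.984). For Tbx3 they were Spcs2 (0.982), Rel (0.976) and Gatad2b (0.976). For Tbx15 they were Pappa (0.970), Grhl2 (0.963) and Thumpd3 (0.962). For Tbx18 they were Yipf5 (0.988), Dek (0.982) and Zfp654 (0.976), and for Tbx20 Hspb1 (0.990), Rab35 (0.987) and Inpp5a (0.987). Between 10 genes (Tbx15) and 280 genes (Tbx5) had an r above 0.95. An r near 1 does not mean a change of like size. Msmo1 had 240, 220 and 165 CPM in WT, S1S2 and G9Gl, where Tbx1 had 2.55, 1.21 and 0.0109. Grhl2 had 0.0110, 0.224 and 0.812 CPM and passed the filter on low counts only with the G9Gl libraries, where it was highest. Its r with Tbx15 thus rests on low counts. The named genes depend on the measure. With Spearman correlation 1 of the 3 stayed among the top 3 for Tbx1, Tbx3 and Tbx15, and 0 for Tbx2, Tbx5, Tbx18 and Tbx20.

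Markers of other cell types moved with the genotypes. The summed level of the 8 fibroblast markers was 9795 to 11294 CPM in WT, 7369 to 7430 in S1S2 and 7718 to 8573 in G9Gl. In S1S2 5 of the 8 were called, all lower, namely Col1a2, Col3a1 (log2 fold change -3.01, adjusted p = 5.74e-17), Thy1 (-1.29, adjusted p = 5.75e-07), Pdgfra (-2.04, adjusted p = 3.64e-10) and Pdgfrb (-1.14, adjusted p = 5.64e-10). In G9Gl 3 were called, Pdgfra (-1.85, adjusted p = 4.41e-10) and Pdgfrb (-1.34, adjusted p = 4.14e-11) lower and Thy1 higher (2.94, adjusted p = 3.7e-14). Vim, Col1a1 and Fn1 were not called in either mutant, and their S1S2 log2 fold changes were 0.72, -0.36 and 0.089. The 4 epicardium and mesothelium markers summed to 417 to 453 CPM in WT, 447 to 466 in S1S2 and 986 to 1029 in G9Gl, almost all from Msln, and Wt1 had no count in any library. Msln (log2 fold change 1.20, adjusted p = 1.98e-13) and Upk3b (3.38, adjusted p = 5.49e-10) rose in G9Gl and were not called in S1S2. Krt19 rose in both mutants, with a log2 fold change of 3.20 for S1S2 (adjusted p = 1.22e-10) against 2.53 for G9Gl (adjusted p = 2.77e-09). Of the 5 cardiac muscle markers 2 were tested, their list summed to 1.58 to 3.21, 0.474 to 0.752 and 6.14 to 7.51 CPM, and Myh6 had no count. Actn2 fell in S1S2 (-2.73, adjusted p = 1.33e-05) and rose in G9Gl (1.10, adjusted p = 0.000682), and Tnnt2 had 62, 73 and 58 counts in G9Gl and at most 15 in any other library. The 5 epithelium markers summed to 0.298 to 0.548, 4.67 to 5.60 and 0.294 to 0.395 CPM, led by Krt8, which had 104, 113 and 109 counts in S1S2 and at most 8 in any other library. The 4 endothelium markers summed to 0.123 to 0.193, 1.55 to 1.75 and 0.647 to 1.90 CPM. Of them, Kdr was at least 12.7-fold higher in S1S2 than in WT, and Cdh5 was at least 10.5-fold higher in G9Gl. Kdr, Cdh5, Krt8 and Tnnt2 passed the filter on low counts through the genotype where they were high, so no p-value is given for them. The 3 blood markers summed to 4.31 to 4.46, 3.24 to 4.05 and 4.63 to 4.90 CPM, and the 3 chondrocyte markers to 2.19 to 2.58, 2.73 to 3.35 and 2.07 to 2.77, with none of these called against WT. The part of these differences in the T-box values was not tested.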

How the data were processed

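Total RNA of 9 MEF libraries, made with a kit that keeps the strand, was sequenced. According to the methods of the study, paired-end reads were trimmed (cutadapt), aligned to GRCm38 by STAR (version 2.5.2b in the submitters' processing notes) and assigned to genes by TEtranscripts. The deposited table holds the resulting counts, one row per Ensembl gene, which the authors left unnormalized. Multiply aligned reads can be shared between similar genes. The annotation release and the strand setting of the counting are not given in the sources used here. Identifiers were matched to GENCODE M21 (47224 of 47937, with 713 unmatched), and 21449 genes had no count.

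Counts were tested in R 4.3.3 with edgeR 4.0.16 (filterByExpr, TMM, glmQLFit and glmQLFTest) in a single fit of all 9 libraries with a coefficient per genotype, with Benjamini-Hochberg adjustment. SE were computed from replicate log2 CPM (prior count 2). A floor of 3 counts per library corresponds to 0.0923 to 0.141 CPM. Floors cover counting error only. The study's methods call the 3 libraries of a line biological replicates, but neither they nor the labels say whether these were separate cultures, so p-values measure the spread between these libraries. Replicate pairs differed by more than counting noise. Scripts were tested on simulated counts.

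The T-box genes, the lists and the tests were chosen with earlier results of these data known. Named were the 8 genes, network list genes called in a comparison with a mean of at least 1 CPM in a genotype (at most the 6 with the largest change per list), outside that rule the called Mef2c, Fgf10 and Cyp26a1 below 1 CPM, every called cell type marker, the other T-box genes, the nearest tested neighbours, and the 3 most similar genes. A listed gene is not reported here, and the list counts were computed without it. Alternatives were DESeq2 1.42.0, its size factors, no composition factor, other filters and cutoffs, fits of 2 genotypes, a replicate block, leaving out each library, the longest transcript as gene length and Spearman correlation.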

Additional observations from a re-analysis of the deposited data

Results flagged for a closer look

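Several genes differed directly between the mutants, in the edgeR comparison of G9Gl against S1S2. For the T-box genes, which were chosen with the contrasts known, the log2 fold changes are given as a description. They were -6.22 for Tbx1, -1.54 for Tbx2 and 1.51 for Tbx5. The Tbx1 value is a fitted estimate that depends on the prior count, and the bound is at least 11.6-fold lower in G9Gl.

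Of the other genes, Eomes (1.81, adjusted p = 5.11e-07), Tle4 (2.24, adjusted p = 3.02e-10), Col1a2 (2.36, adjusted p = 8.93e-17) and Has2 (1.55, adjusted p = 9.11e-10) were higher in G9Gl. Cyp26a1, at low counts, had a log2 fold change of -2.64. Isl1 had a fitted log2 fold change of 10.64 that likewise depends on the prior count, and it was at least 55.3-fold higher in G9Gl.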

How the results depend on the processing

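The threshold changed most counts. At an adjusted p of at most 0.05 with no fold change cutoff, 7599 genes were called in S1S2 against WT, 7138 in G9Gl against WT and 8288 in G9Gl against S1S2. Of the T-box genes, 6 were then called in S1S2 and 6 in G9Gl against WT and, as with the cutoff, 3 in G9Gl against S1S2, and of the network genes 32, 31 and 30. With each library left out in turn, the counts in the same order ranged from 1296 to 1426, 1515 to 1599 and 1981 to 2076 for all genes, 2 to 3, 1 to 1 and 3 to 3 for the T-box genes, and 9 to 11, 5 to 7 and 6 to 9 for the network genes. Replicate numbers did not pair the libraries, with correlations of same-numbered deviations between -0.0686 and 0.124. A fit with the replicate block called 1383, 1568 and 2022 genes, 3, 1 and 3 T-box genes, and 9, 6 and 6 network genes. In a fit of only the libraries compared, 4 network genes were called in G9Gl against WT, 2 higher and 2 lower, because Mef2c and Cyp26a1 no longer passed the filter. Without a filter on low counts Tbx4 was also called lower in S1S2. None of the alternatives turned the direction of the 7 tested genes described. The same alternatives were run for the flanking genes, a choice made after seeing the data. With only the WT and G9Gl libraries fitted, Gp1bb did not pass the filter. Its log2 fold change in G9Gl against WT was -2.28 with the replicate block, no longer called. With a library left out it ranged from -3.09 to -1.70. Against S1S2 it was -2.75 and ranged from -3.54 to -2.14, with the call lost without S1S2 replicate 3 or G9Gl replicate 3. Gp1bb passed the filter through the S1S2 libraries, where it was highest, so no p-value is given. For Gm43050 the log2 fold change in G9Gl against S1S2 ranged from 0.99 to 1.27. The counts of Tbx1, Tbx2 and Tbx4 are low, so depth limits their folds.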
